A study of Mus musculus with 25 samples.

Results

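Control podocytes at 44 weeks of age were compared with control podocytes at 2 weeks, over 8 of the 25 arrays of the series. The arrays were chosen by their titles alone: 4 at 44 weeks (arrays 15, 16, 17 and 18) and 4 at 2 weeks (arrays 1, 2, 3 and 5). Arrays at 5 weeks were not used, so each difference is the net change between a juvenile and an adult kidney. The RNA was polysomal RNA of kidney podocytes, taken by translating ribosome affinity purification (TRAP), in which an antibody to a tag on a ribosomal protein pulls down ribosomes together with the mRNAs on them. All mice, controls included, were of the strain C57/129sv and carried Tg:Col1a1-eGFPL10a, a fusion of green fluorescent protein with ribosomal protein L10a placed behind the collagen1α1 promoter/enhancer. The controls at 44 weeks (postnatal day 300) and at 2 weeks (postnatal day 14) were wild type at Actn4, the gene of the actin crosslinker alpha-actinin-4. Knock-in (KI) mice carried the same transgene and the allele Actn4tm1.1Plk, and their 4 arrays at 44 weeks and 4 at 2 weeks give the same age contrast in other samples. The tag is driven by a collagen element and not by a podocyte gene, and its level in each cell type was not tested. The labels give sex as unknown. Nothing in them ties an array to its own mouse, so a p-value here reflects array-to-array spread that may be technical.

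Podocytes are the epithelial cells that wrap the glomerular capillaries with interlocking foot processes, joined by the slit diaphragm, a filter junction built around nephrin (Nphs1). Together with the endothelium they lay down the glomerular basement membrane, whose early collagen IV chains (Col4a1, Col4a2) and laminin chain (Lamb1) are joined or replaced during maturation by Col4a3, Col4a4, Col4a5 and Lamb2. In mice the last nephrons form around birth, and mature podocytes do not normally divide.

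Each array gave 1 deposited log2 signal for each of 45141 probe sets, and each gene was read from its probe set with the highest mean over the 25 arrays. After the dimmest 30% of genes were left out, 11968 were tested with limma, a linear model per gene that draws on the variance of all genes. A gene was called where the Benjamini-Hochberg adjusted p was under 0.05, with no minimum fold. Of these genes 2930 (24.5%) were called, 1212 higher at 44 weeks (10.1%) and 1718 lower (14.4%). More than 2-fold changes among the calls numbered 355 rises (2.97%) and 686 falls (5.73%). The median change of all genes tested was -0.03 and the median standard error 0.17, both in log2 units. The total moved to between 1830 and 1947 calls when 44-week array 17 or 18 or 2-week array 3 or 5 was left out.

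The podocyte label was checked against its markers. Podxl averaged 12.68 ± 0.07 at 44 weeks and 12.60 ± 0.07 at 2 weeks, Synpo 12.48 ± 0.05 and 12.32 ± 0.10, and Wt1 12.32 ± 0.07 and 12.05 ± 0.09 (log2 signal, SD, n = 4 each). Tubule markers also gave signal, at levels from bright to dim: Kap averaged 12.25 ± 0.27 at 44 weeks and 12.67 ± 0.42 at 2 weeks, Umod 11.60 ± 0.35 and 10.59 ± 0.37, Slc5a2 8.17 ± 0.50 and 7.57 ± 0.24, and Aqp2 6.21 ± 0.25 and 6.20 ± 0.17. Kap, Slc5a2 and Aqp2 were named after their values were seen. The fat cell marker Adipoq stayed dim at 2.63 and 2.67, and Slc34a1 and Lrp2 were not analysed here. In bulk RNA such as this, fewer cells of a type and less RNA per cell cannot be told apart.

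An array in each age group differed from the rest in tubule signal, though neither passed the test for an outlying array. The mean signal of 42 proximal tubule genes was 10.06 on 44-week array 15, against 8.61 to 9.23 on the other 44-week arrays, and 8.35 on 2-week array 1, against 9.08 to 9.43 on the other 2-week arrays. The mean of 3 Y-linked genes was high (8.28) on array 15 and low (2.89 to 3.30) on the other 44-week arrays, whereas all 4 arrays at 2 weeks were high (7.26 to 7.67). Sex by this signal was thus unequal between the ages in controls; in KI arrays it was high on 3 of 4 arrays at 44 weeks and on 1 of 4 at 2 weeks, the opposite imbalance. A fit of all 25 arrays with the Y-linked mean as a covariate called 2582 (88.1%) of the 2930 genes again in the same direction. A fit of the 8 arrays with that covariate called 1148 (39.2%) of them. Within rounding of the percentage, the 2930 genes all kept their sign in both fits. In the 8 arrays the separation of sex from age rested on array 15. The lower count there thus cannot tell an effect of sex from a loss of precision. The same limit applies to the list counts from the 8-array fit given below. The signal of the 18S control probe set, read as a measure of the RNA, was 11.15, 11.36, 10.86 and 10.78 at 44 weeks and 9.34, 8.78, 8.81 and 8.51 at 2 weeks, with no overlap. That difference of 2.18 had an exact two-sided permutation p of 0.029, the smallest that 4 against 4 arrays allow, and 0.11 after adjustment over 4 array measures; its part in the gene results was not tested.

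**Figure D1:**
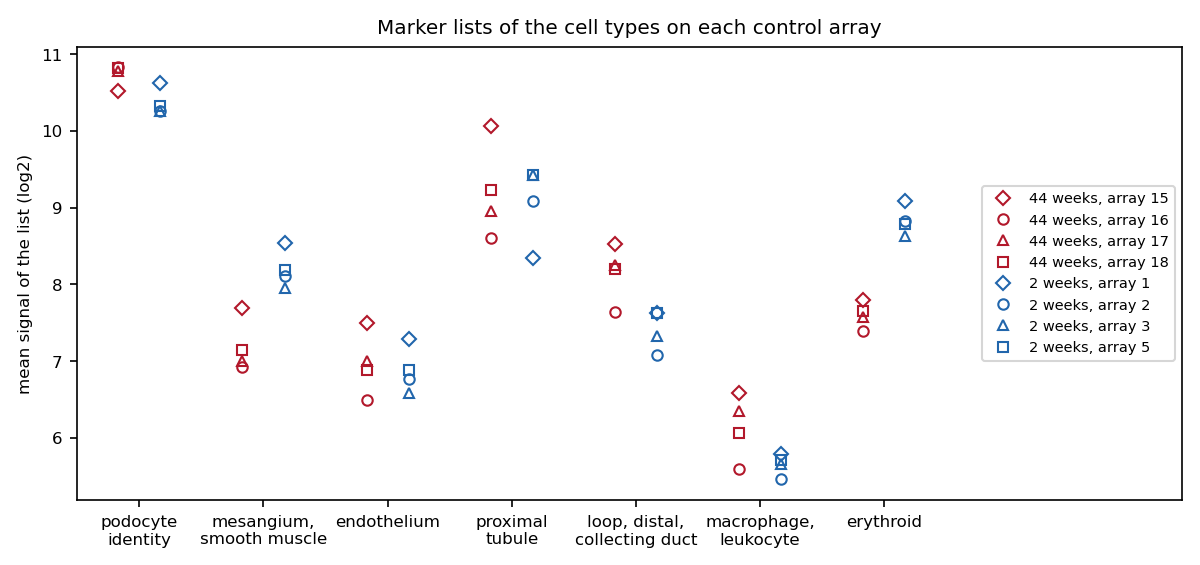
Mean log2 signal of 7 marker lists on each of the 8 control arrays, 44 weeks in red and 2 weeks in blue, with 1 symbol for each array. Array 15 lies highest of the 44-week arrays for proximal tubule (10.06) and array 1 lowest of the 2-week arrays (8.35). The mesangium and erythroid lists separate the ages on all arrays. The loop, distal and collecting duct list does so only narrowly (lowest 7.64 at 44 weeks, highest 7.63 at 2 weeks).

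The largest rise was in Pigr, the receptor that carries polymeric antibodies across epithelia. Pigr read 12.76, 12, 12.88 and 12.22 on the 44-week arrays (15 to 18, in that order here and below), against 5.03, 5.16, 5.11 and 4.97 on the 2-week arrays (1, 2, 3 and 5). Every 44-week array was far above every 2-week array, a change of 7.40 ± 0.20 (log2 ± SE) or 169-fold (limma adjusted p = 9.5e-07). Jchain, which joins antibody units into polymers, read 8.99, 7.74, 9.67 and 8.56 at 44 weeks and 3.21, 3.12, 3.21 and 3.32 at 2 weeks, a change of 5.53 ± 0.35 (limma adjusted p = 0.00011). Igkj1, a joining segment of the kappa light chain locus, changed by 5.43 ± 0.37 (adjusted p = 0.00014); whether its probe set separates it from the rest of that locus was not tested. After these came Creg2 (4.61), Cyp2a5 (4.49), the homocysteine-remethylating enzyme Bhmt (4.33), the vitamin D-inactivating enzyme Cyp24a1 (4.22), the bile acid carrier Slc10a2 (4.20) and Cyp4b1 (4.05).

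Neuroglobin, Ngb, read 10.59, 10.73, 10.39 and 10.79 at 44 weeks and 7.15, 6.69, 6.62 and 6.83 at 2 weeks. Its rise of 3.80 ± 0.15 (limma adjusted p = 8.9e-06) lay well outside both groups' spread. Nox4, the NADPH oxidase of the kidney, read 9.97, 9.69, 11.22 and 10.08 at 44 weeks, against 6.85, 6.51, 6.25 and 7.06 at 2 weeks, a rise of 3.57 ± 0.33 (adjusted p = 0.0005). Ptchd4 (3.70), the complement chain C8a (3.56), the carboxypeptidase Folh1 (3.39) and Aldh1a7 (3.38) made up the rest of the 15 largest rises. Of these 15 genes, 9 had a 2-week mean under 4.603, the limit of the filter on dim genes, and of the 15 largest falls 4 had a 44-week mean under it (Serpina6, Adam12, Nav3 and Defa21), so their folds rest on dim signals.

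The largest fall was in Serpina6, which encodes corticosteroid-binding globulin. Serpina6 read 4.26, 4.55, 4.18 and 4.03 at 44 weeks, against 10.26, 12.76, 12.80 and 12.67 at 2 weeks. All 44-week arrays were near the dim end, and 2-week array 1 was lower than its group. The change was -7.86 ± 0.53, a fitted 233-fold fall to a dim signal (limma adjusted p = 0.00014), and -8.49 without array 1. Angiotensinogen, Agt, showed the same array: it read 5.87, 5.52, 5.12 and 6.18 at 44 weeks, against 6.37, 10.02, 10.55 and 10.25 at 2 weeks. The groups still did not overlap, and the change was -3.62 ± 0.85 with array 1 (adjusted p = 0.017) and -4.60 without it (0.0001). The homeobox gene Alx1 (-4.26), the matricellular gene Smoc2 (-4.52), Nav3 (-3.90) and the alpha-defensin Defa21 (-3.68), whose near-identical relatives may share its signal, were also among the 15 largest falls. Most of the remaining ones were matrix genes.

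**Figure D2:**
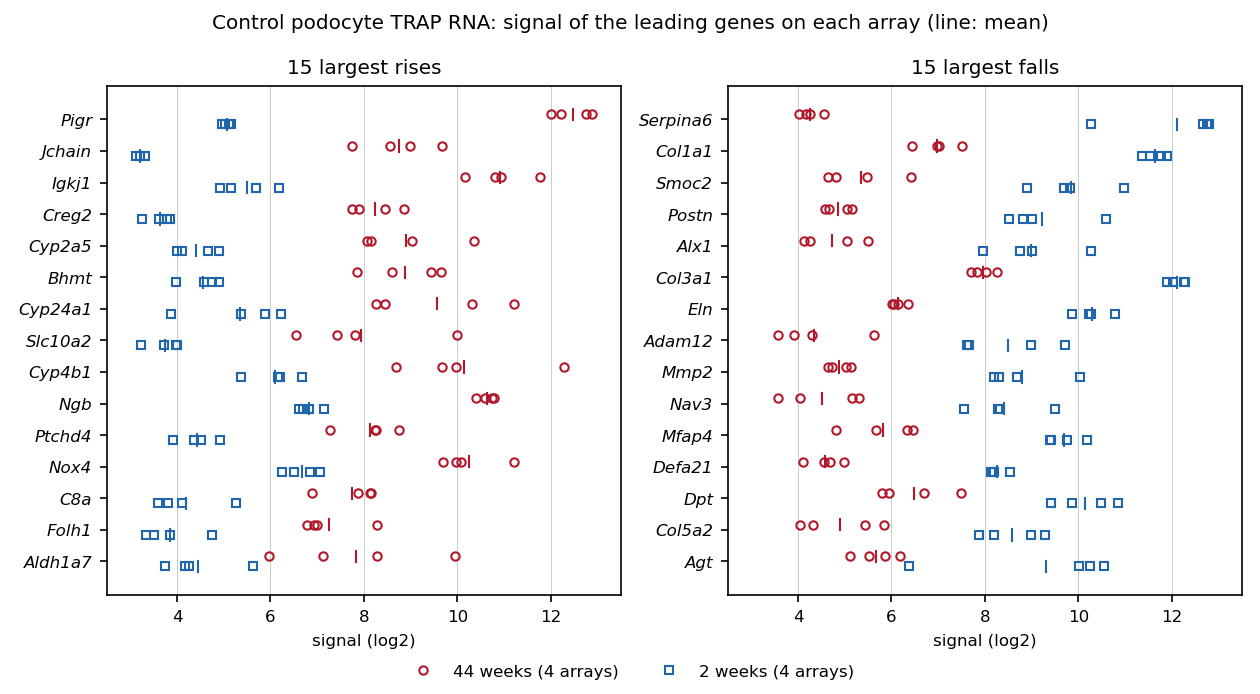
Log2 signal of the 15 genes with the largest rises (left panel) and the 15 with the largest falls (right panel), 44-week arrays as red circles and 2-week arrays as blue squares, with a vertical line at each group mean. The age groups do not overlap for any of these genes, as the naming rule required; for Serpina6 and Agt 1 of the 2-week arrays, array 1, lies well left of the other 3.

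Genes of the interstitial matrix, the fibrillar collagens, elastic fibres and their crosslinking enzymes, fell almost as a block. Of 35 tested members 30 fell, 1 rose and 4 did not pass, with a median change of -2.49 against -0.03 for all genes. Leaving out any 1 array gave 28 to 30 falls. Col1a1, whose promoter element drives the ribosome tag, read 7.50, 7.01, 6.44 and 6.97 at 44 weeks and 11.90, 11.77, 11.37 and 11.53 at 2 weeks. The highest 44-week array was far below the lowest 2-week array, a fall of 4.66 ± 0.22 (25.3-fold, limma adjusted p = 2.6e-05). Col3a1, which forms fibrils with it, read 8.25, 7.71, 7.83 and 8.02 at 44 weeks and 12.25, 12.27, 11.89 and 12.03 at 2 weeks, a change of -4.16 ± 0.15 (adjusted p = 6.7e-06). Elastin, Eln, read 6.35, 6.14, 6.01 and 6.05 at 44 weeks and 10.79, 10.23, 9.87 and 10.26 at 2 weeks, a change of -4.15 ± 0.19. Periostin (Postn, -4.36), Mfap4 (-3.86), Col5a2 (-3.67), the microfibrillar collagen chains Col6a1 (-3.33) and Col6a2 (-3.32) and the crosslinking enzyme Loxl1 (-2.49) fell as well. The member that rose was Efemp1, a fibulin (1.27, adjusted p = 0.0038), named after its value was seen.

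Enzymes that cut or fold matrix followed. Of 22 tested members of the protease list 11 fell, 2 rose and 9 did not pass (median -0.67), with 1 rise without array 3, 5, 16, 17 or 18 and 4 without array 1. The gelatinase Mmp2 read 4.65, 4.72, 5.14 and 5.02 at 44 weeks, against 8.68, 10.04, 8.19 and 8.31 at 2 weeks, a change of -3.92 ± 0.38 (limma adjusted p = 0.00054). Adam12 (-4.13), Adamts10 (-3.06), Adamts9 (-2.29) and the collagen chaperone Serpinh1 (-2.28) fell with it. The rises were Adam9 (0.99, adjusted p = 0.0021) and the protease inhibitor Timp3 (0.52, adjusted p = 0.043), the second named after its value was seen. Of 16 tested mesangium and smooth muscle markers 10 fell, none rose and 6 did not pass, against 14.4% lower over all genes. Postn, among these markers, is also a matrix gene. The mean signal of the markers was 6.93 to 7.69 at 44 weeks and 7.95 to 8.54 at 2 weeks. Among the falls the contractile actin Acta2 changed by -1.78 (limma adjusted p = 0.00085), the pericyte gene Rgs5 by -2.07 and the mesangial integrin Itga8 by -1.88. The smooth muscle marker Myh11, named after its values were seen, averaged higher at 44 weeks with a wide spread. It read 8.37 ± 2.04 there and 7.54 ± 1.36 at 2 weeks (mean ± SD). The part of these markers in the matrix result was not tested.

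Within the glomerular basement membrane list, the early chains fell while the mature chains did not pass the test. Of 19 tested members 10 fell, none rose and 9 did not pass (median -0.56), and leaving out any 1 array gave 9 or 10 falls. Col4a1 read 9.59, 8.82, 8.86 and 8.63 at 44 weeks and 11.71, 11.70, 11.45 and 11.37 at 2 weeks. Col4a2, encoded beside it, read 9.36, 8.32, 8.71 and 8.61 at 44 weeks and 11.57, 11.73, 11.36 and 11.29 at 2 weeks. In both genes array 15 was the highest of the 44-week arrays yet stayed under all 2-week arrays, and the changes were -2.58 ± 0.21 and -2.74 ± 0.22 (limma adjusted p = 0.00034 and 0.00032). The early laminin chain Lamb1 changed by -1.91 ± 0.25 (adjusted p = 0.0016), the gamma chain Lamc1 by -1.92 ± 0.17, nidogen (Nid1) by -2.32 ± 0.20 and Tinagl1 by -1.59 ± 0.18.

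Col4a3, the mature chain, read 11.20, 11.88, 11.88 and 11.79 at 44 weeks and 11.48, 11.14, 10.86 and 11.01 at 2 weeks. Here the groups overlapped through arrays 15 and 1, and the change of 0.57 ± 0.20 missed the threshold (limma adjusted p = 0.066). It passed without array 15 (0.73, adjusted p = 0.015), without array 1 (0.69, 0.035) and without both (0.85, 0.0032). Col4a4 changed by -0.14 ± 0.13, Col4a5 by 0.01 ± 0.19 and Lamb2 by 0.06 ± 0.20, with adjusted p of 0.44, 0.97 and 0.86; these 4 genes were named after their values were seen. Whether the early chains changed differently from the mature ones was not tested, and levels of different probe sets cannot be compared.

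**Figure D3:**
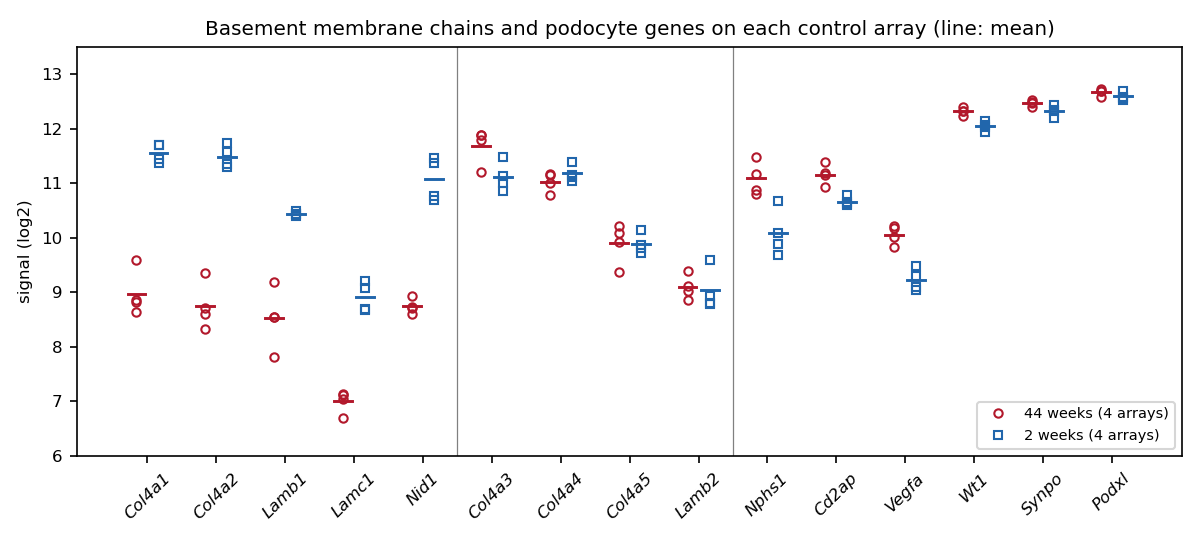
Log2 signal of 15 genes on each control array, with a line at each mean. Red circles for 44 weeks stand left of blue squares for 2 weeks. From left to right stand the early chains Col4a1, Col4a2 and Lamb1 with Lamc1 and Nid1, the mature chains and the podocyte genes. Col4a1 to Nid1 separate the ages with the 44-week arrays low, Col4a4, Col4a5 and Lamb2 overlap, and Nphs1, Cd2ap and Vegfa separate them with the 44-week arrays high.

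Cell cycle genes fell and none rose. Of 55 tested members 33 fell and 22 did not pass, with a median of -0.85, and leaving out 1 array at a time gave 25 to 35 falls, and the Y-linked covariate over 8 arrays 21. Top2a, the topoisomerase that untangles replicated DNA, read 5.52, 5.05, 5.24 and 4.39 at 44 weeks, against 7.94, 7.96, 7.56 and 7.07 at 2 weeks, a change of -2.59 ± 0.28 (limma adjusted p = 0.00082). Cdk1, the mitotic kinase, read 6.25, 5.06, 5.25 and 5.66 at 44 weeks and 7.87, 8.74, 7.71 and 7.50 at 2 weeks, a change of -2.40 ± 0.33 (adjusted p = 0.0021). Neither gene overlapped between the ages. The proliferation marker Mki67 (-2.48), the mitotic kinase Pbk (-3.04), the spindle factor Tpx2 (-2.16) and the early-phase kinase Cdk4 (-0.97) fell too. Pcna, the replication clamp, changed by 0.19 ± 0.10 and did not pass (adjusted p = 0.21); it was named after its value was seen. Of 27 tested genes of chromatin and DNA methylation 7 fell, 4 rose and 16 did not pass (median -0.06). The share of falls was above the 14.4% of all genes, and that of rises near the 10.1%. Uhrf1 changed by -1.88 ± 0.20 (adjusted p = 0.00081), Dnmt1 by -1.20 and Dnmt3b by -1.68. The rises, named after their values were seen, were Kdm5a (0.81), Chd4 (0.73), Smarcc1 (0.59) and Nap1l1 (0.34); 0 rose without array 18, 1 without array 5 and 2 without array 3 or 17.

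Many mitotic genes carry the CCAAT box, the binding motif of NF-Y, close to their start. The 250 bases upstream of RefSeq transcript starts (GRCm38.p6) were searched for CCAAT on either strand, so ATTGG counts and a CCAATTGG counts on both. The promoters of Top2a and Cdk1 are shown because these genes fell without overlap and their promoters hold the motif several times, 6 and 3. That of H2-Aa, an antigen-presenting gene that rose, is shown as well and holds 1. Capitals mark CCAAT or ATTGG, and each sequence runs 5′ to 3′ along its gene.
Top2a, chr11:99024190-99024439, minus strand: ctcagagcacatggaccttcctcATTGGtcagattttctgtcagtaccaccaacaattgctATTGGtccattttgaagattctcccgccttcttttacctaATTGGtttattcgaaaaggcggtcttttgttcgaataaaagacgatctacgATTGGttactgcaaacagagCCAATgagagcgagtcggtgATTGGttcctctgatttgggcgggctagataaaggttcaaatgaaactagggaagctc
Cdk1, chr10:69352913-69353162, minus strand: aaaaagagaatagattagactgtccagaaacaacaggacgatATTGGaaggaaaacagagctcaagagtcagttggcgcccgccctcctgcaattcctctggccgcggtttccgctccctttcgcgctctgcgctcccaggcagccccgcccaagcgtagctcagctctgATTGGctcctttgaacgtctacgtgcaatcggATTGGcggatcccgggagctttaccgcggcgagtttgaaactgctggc
H2-Aa, chr17:34287824-34288073, minus strand: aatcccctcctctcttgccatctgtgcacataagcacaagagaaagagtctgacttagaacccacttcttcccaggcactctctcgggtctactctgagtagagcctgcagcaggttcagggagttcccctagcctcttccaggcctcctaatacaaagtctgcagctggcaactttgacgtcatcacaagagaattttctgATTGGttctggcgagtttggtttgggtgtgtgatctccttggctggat
The motif was in 34 of 51 promoters of 43 cell cycle genes (66.7%), against 33.8% of all 32851 promoters. It was in 22 of 28 promoters of the members that fell (78.6%) and in 12 of 23 of those not called (52.2%). TTTGAA on either strand, the core of the cell cycle homology region, was in 13 of the 51 (25.5%), against 16.0% of all promoters and 10.8% of those of genes tested; it was in 10 of 28 promoters of members that fell (35.7%) and in 3 of 23 of those not called. Among all genes lower at 44 weeks CCAAT was in 34.7% of promoters, and among all genes higher in 34.6%, so neither direction of change as a whole stood above the 34.7% of all genes tested. A match to these letters is a description and not a binding site.

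Podocyte genes moved the other way. Of 39 tested podocyte identity genes 11 rose, none fell and 28 did not pass, with a median of 0.39. This count depended on the arrays: it was 6 without array 5, 17 or 18, 7 without array 3 or 16, 16 without array 15, 17 without array 1 and 23 without both 1 and 15. With the Y-linked covariate 1 rose over 8 arrays (median 0.18) and 15 rose over 25 arrays (median 0.28). Vegfa, the growth factor podocytes send to the endothelium, read 9.84, 10.18, 10.22 and 10.01 at 44 weeks and 9.48, 9.30, 9.10 and 9.05 at 2 weeks, a rise of 0.83 ± 0.14 (limma adjusted p = 0.0051). Srgap1, a regulator of small GTPases at foot processes, rose by 1.46 ± 0.15 (adjusted p = 0.00075), the intermediate filament Nes by 1.24 ± 0.27, the transcription factor Dach1 by 0.98 ± 0.19, Bmp7 by 0.81 ± 0.14 and the actin-binding Nebl by 0.74 ± 0.15. The transcription factor Wt1 read higher on all 44-week arrays, but its change of 0.28 ± 0.10 did not pass (adjusted p = 0.073). Synpo changed by 0.16 ± 0.10 (0.28), Podxl by 0.08 ± 0.10 (0.57) and Ptpro by 0.26 ± 0.14 (0.23), each with its adjusted p. These last 4 genes were named after their values were seen.

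In the slit diaphragm list 5 of 22 tested members rose, 1 fell and 16 did not pass (median 0.23). Nphs1, nephrin, read 10.88, 11.17, 10.81 and 11.49 at 44 weeks, against 10.68, 9.68, 9.89 and 10.09 at 2 weeks. The groups were separated by a small step between arrays 17 and 1, and the rise was 1.00 ± 0.24 (limma adjusted p = 0.018). Its cytoplasmic partners Cd2ap (0.50), Nck1 (0.53) and Nck2 (0.41), which link nephrin to actin, and the scaffold Iqgap1 (1.35) rose too, and the polarity gene Pard6a fell by 0.74. The rises numbered 2 without array 3 or 18, 3 without array 5 or 17, 7 without array 1, and 1 with the Y-linked covariate over 8 arrays. Among 66 tested actin cytoskeleton genes 15 fell, 5 rose and 46 did not pass (median -0.03). The share of falls was above the 14.4% of all genes, and that of rises under the 10.1%. Without array 17 the falls numbered 8. The rises numbered 1 without array 18, 2 without array 2, 3 or 17 and 3 without array 1 or 5. The falls were led by the smooth muscle light chain Myl9 (-2.01), the tropomyosin Tpm2 (-2.28), Evl (-2.42) and the bundling protein Fscn1 (-1.84). The formin Diaph2 read 8.79, 8.77, 8.72 and 8.86 at 44 weeks, an unusually tight group, and 7.48, 6.75, 7.47 and 7.39 at 2 weeks, a rise of 1.51 ± 0.17 (adjusted p = 0.00097). The other rises, named after their values were seen, were the nonmuscle myosin Myo1e (1.06), Pls3 (0.60), Cdc42 (0.49) and Rhoa (0.45).

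Growth factor pathways fell more often than they rose. Of 27 tested genes of the VEGF, PDGF and angiopoietin pathways 11 fell and 4 rose (median -0.59); of 36 TGF-beta and BMP genes 12 fell and 3 rose (median -0.46), the rises being Bmp7, Skil (0.76) and Bmpr2 (0.43), of which Skil and Bmpr2 were named after their values were seen. The capillary-destabilising ligand Angpt2 read 5.53, 5.15, 5.56 and 5.30 at 44 weeks, against 7.00, 8.30, 8.19 and 8.00 at 2 weeks, a change of -2.49 ± 0.28 (limma adjusted p = 0.00086). The receptors Pdgfrb (-1.39) and Pdgfra (-1.28), the lymphatic ligand Vegfd (-1.99) and the latency protein Ltbp4 (-2.12), the follistatin-like Fstl1 (-2.02), Bmp4 (-1.45) and Tgfb1 (-1.34) fell. The rises beside Vegfa were in its receptors Flt1 (2.07, adjusted p = 0.0078), Kdr (1.02, 0.045) and Nrp1 (0.54), the last named after its value was seen. Flt1 and Kdr are endothelial genes. Over 25 endothelial markers 4 rose (Flt1, Ptprb, Kdr and Clec14a) and 3 fell (Aplnr, Eng and Ehd3, the last named after its value was seen). These numbers, and the 4 rises of the VEGF pathway, were near the 10.1% higher and 14.4% lower of all genes. The mean signal of the endothelial markers overlapped, at 6.50 to 7.50 at 44 weeks and 6.58 to 7.29 at 2 weeks. Only 1 endothelial marker rose without array 2, 3, 17 or 18, and 2 without array 5; of the VEGF pathway 2 rose without array 2, 3, 5, 17 or 18. Insulin-like growth factor, Igf1, read 4.75, 5.15, 5.25 and 5.15 at 44 weeks and 7.07, 7.05, 7.30 and 7.18 at 2 weeks, a change of -2.08 ± 0.14 (adjusted p = 0.00014), while its receptor Igf1r rose by 1.24 ± 0.20 (0.004).

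Integrin and focal adhesion genes, which anchor cells to matrix, fell in 12 of 38 tested members and rose in 2, Lims1 (0.75) and Parva (0.64), both named after their values were seen (median -0.27). The falls numbered 7 without array 3, 5 or 17, and the rises 0 without array 3, 16 or 18 and 1 without array 2, 5 or 17. The collagen-binding Itga1 changed by -1.35 ± 0.17 (limma adjusted p = 0.0014), Itga9 by -2.03 ± 0.21 and the adhesion protein Zyx by -1.60 ± 0.16. Of 23 Hox genes, which set position along the body axis, as many rose as fell, in numbers near the 10.1% and 14.4% of all genes: 4 rose (Hoxa9 1.15, Hoxc8 0.88, Hoxc4 0.84, Hoxa7 0.65) and 4 fell: Hoxa11 (-2.50 ± 0.26, adjusted p = 0.00076), Hoxb6 (-1.36) and, named after their values were seen, Hoxd11 (-1.04) and Hoxa2 (-0.32). The Hox falls numbered 1 without array 2, 3 or 5 and 2 without array 15 or 16. Immediate-early genes, which respond within minutes to stimuli and to handling of tissue, fell in 9 of 28 tested members and rose in 1, Ier3 (0.74), named after its value was seen. The falls numbered 5 without array 2 or 5, and the rise was called only with array 1 or 15 or none left out. Egr1 read 8.45, 9.92, 10.48 and 9.51 at 44 weeks and 11.30, 11.68, 11.10 and 11.60 at 2 weeks, a change of -1.83 ± 0.38 (adjusted p = 0.012).

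**Figure D4:**
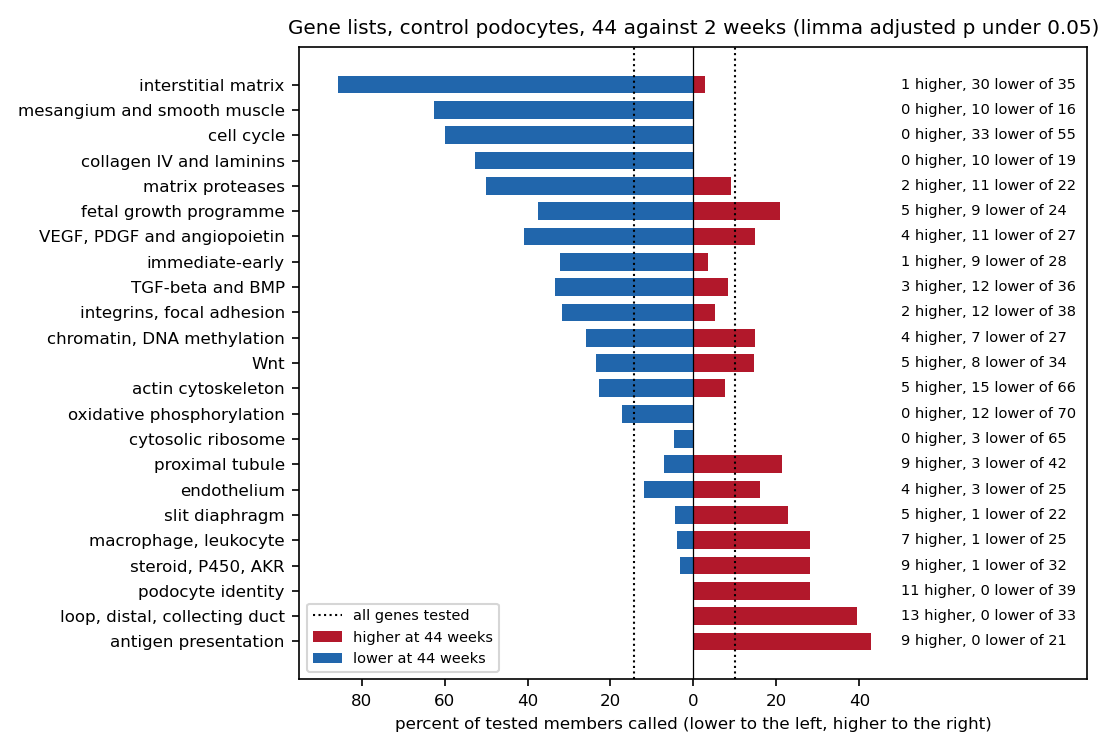
Percent of the tested members of 23 gene lists that were called higher at 44 weeks (red, to the right) or lower (blue, to the left) in controls, with dotted lines at the 10.1% and 14.4% of all genes. Interstitial matrix (30 of 35 lower), mesangium (10 of 16) and cell cycle (33 of 55) reach furthest left, antigen presentation (9 of 21 higher) and the distal nephron (13 of 33) furthest right.

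Genes that present antigen rose and none fell. Of 21 tested members 9 rose and 12 did not pass (median 0.47), and the rises numbered 4 without array 17, 5 without array 2 or 18, 6 without array 5, 7 to 9 without each of the others and 3 with the Y-linked covariate over 8 arrays. H2-M3 read 7.42, 7.53, 7.62 and 7.85 at 44 weeks, against 6.44, 6.50, 6.41 and 6.26 at 2 weeks, a rise of 1.20 ± 0.12 (limma adjusted p = 0.00071). The class I gene H2-D1 rose by 1.56 ± 0.19 (adjusted p = 0.0012), the immunoproteasome subunit Psmb9 by 1.38 ± 0.24 and the class I activator Nlrc5 by 1.70 ± 0.41. The class II chain H2-Aa, whose promoter is shown above, read 9.07, 7.63, 8.55 and 8.68 at 44 weeks and 7.34, 6.00, 7.33 and 6.42 at 2 weeks, a rise of 1.71 ± 0.39 (adjusted p = 0.015), and its chaperone Cd74 rose by 1.80 ± 0.44 (0.021). Genes of this complex are near-identical in part, and their probe sets may share signal. CCAAT was in 12 of 19 promoters of 16 tested members of this list (63.2%), near the 66.7% of the cell cycle list. The share over all genes tested was 34.7%. The motif was in all 6 promoters found for members that rose, and in 6 of 13 (46.2%) of those not called.

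Leukocyte markers were dim and rose in part. Of 25 tested members 7 rose, and 1, the macrophage receptor Csf1r, fell (-1.60, adjusted p = 0.03), with its 2-week array 1 low at 5.64 against 7.30 to 7.83; its call held without array 1 or 15 and was lost in each of the other 6 fits that left out 1 array. The signalling adaptor Tyrobp read 5.95, 5.40, 6.32 and 5.34 at 44 weeks, against 4.78, 4.87, 4.61 and 4.80 at 2 weeks, a rise of 0.99 ± 0.22 (limma adjusted p = 0.014), and the lysosomal protease Ctss rose by 1.98 ± 0.49 (0.022). The list's mean signal was 5.60 to 6.58 at 44 weeks and 5.46 to 5.79 at 2 weeks, highest on array 15. The rises numbered 4 without array 15, 2 without array 2 or 17, 3 without array 3, 5 or 18 and 9 without array 16. Beside Pigr and Jchain, the B cell marker Cd79a averaged 4.66 at 44 weeks and 4.76 at 2 weeks, and Ighm, which was not tested, 4.87 and 4.15; both were named after their values were seen. The part of leukocytes in the antibody and antigen presentation results was not tested. Of 5 tested red cell genes 2 fell and 3 did not pass (median -0.50): Hba-a1 averaged 6.99 ± 0.26 at 44 weeks and 10.08 ± 0.73 at 2 weeks (-3.10, adjusted p = 0.00081), and Hbb-b2 changed by -2.99.

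Transport genes of the loop, distal tubule and collecting duct rose in 13 of 33 tested members and fell in none, with a median of 0.72. The thiazide-sensitive transporter Slc12a3 read 9.74, 8.55, 10.23 and 9.54 at 44 weeks, against 8.44, 6.58, 7.22 and 8.18 at 2 weeks, a rise of 1.91 ± 0.47 (limma adjusted p = 0.022). Umod rose by 1.00 ± 0.23 (0.016), the chloride exchanger Slc26a4 by 1.45 ± 0.35 (0.019) and the growth factor Egf by 0.78 ± 0.19 (0.022). The count rested on few arrays: it was 2 without array 18, 4 without array 3, 5 without array 17, 6 without array 2, 18 without array 16 and 4 with the Y-linked covariate over 8 arrays. Proximal tubule genes rose in 9 of 42 tested members and fell in 3, with a median of 0.01, or -0.24 without array 15. The share of rises was above the 10.1% of all genes, and that of falls under the 14.4%. The sulfate carrier Slc13a1 read 10.15, 8.41, 9.26 and 9.39 at 44 weeks and 6.77, 6.99, 5.83 and 7.18 at 2 weeks, a rise of 2.61 ± 0.40 (0.0032). The peptidase Anpep changed by -2.73 ± 0.50 (0.0067), and the other falls, named after their values were seen, were Xpnpep2 (-3.02) and Ttc36 (-2.11). The falls numbered 10 without array 1, 2 without array 18 and 1 without array 2, 3, 5, 16 or 17. Umod is a member of both tubule lists.

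Enzymes of steroid, retinoid and drug metabolism rose in 9 of 32 tested members and fell in 1, the clock gene Per1, which is in the list as a steroid target (-1.01). Cyp24a1 read 11.22, 8.46, 10.31 and 8.25 at 44 weeks, a wide spread, against 5.37, 3.87, 6.22 and 5.88 at 2 weeks (4.22 ± 0.75, limma adjusted p = 0.0058). Cyp4b1 read 12.28 on array 15 and 8.68, 9.68 and 9.97 on the other 44-week arrays, against 6.68, 6.17, 5.36 and 6.21 at 2 weeks. Cyp2e1, Akr1c14 and Aldh1a7 were also highest on array 15, the only 44-week array with high Y-linked signal. They rose by 3.06, 3.09 and 3.38 with all arrays and by 2.38, 2.30 and 2.68 without array 15. Leaving it out sets 44-week arrays low in Y-linked signal against 2-week arrays high in it. With the Y-linked covariate over 25 arrays these genes rose by 4.42, 4.19 and 4.24. Akr1c18, a reductase that inactivates progesterone, went the other way: it read 4.31 on array 15 and 7.09, 7.04 and 7.18 on the other 44-week arrays, against 3.74, 3.90, 3.91 and 3.58 at 2 weeks. Its rise of 2.62 ± 0.59 (adjusted p = 0.015) was 3.32 without array 15 (3.1e-05) and 1.42 with the Y-linked covariate over 25 arrays (0.053). The mineralocorticoid receptor Nr3c2 rose by 1.06 ± 0.16 (0.0028), with arrays at 6.75 to 7.30 at 44 weeks and 5.69 to 6.16 at 2 weeks.

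Housekeeping lists moved little. Of 65 cytosolic ribosomal protein genes 3 fell, Rpl9 (-0.58), Rps26 (-0.51) and Rpl31 (-0.30), none rose and 62 did not pass. Of 70 respiratory chain and ATP synthase genes 12 fell and none rose (median -0.15), a share of falls near the 14.4% of all genes. The falls were led by Ndufa8, which changed by -0.60 ± 0.11 (limma adjusted p = 0.0071). They numbered 5 without array 2, 3, 5, 17 or 18 and 8 without array 16. Of 32 tested genes of mitochondrial biogenesis and fat oxidation 4 rose, 1 fell and 27 did not pass (median 0.08). The share of rises was near the 10.1% of all genes. Among them the fat oxidation enzyme Cpt1a rose by 1.41 ± 0.26 (0.0069) and its regulator Ppara by 1.41 ± 0.33 (0.018). The fall was in Pparg (-1.34, 0.036). The lipid carrier Apoe read 6.19, 6.41, 5.99 and 6.99 at 44 weeks and 8.73, 9.48, 8.66 and 9.83 at 2 weeks, a change of -2.78 ± 0.31 (0.00092), and the cholesterol exporter Abcg1 rose by 1.48 ± 0.19 (0.0016).

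The same age contrast in KI podocytes used other arrays. There 4160 of 11968 genes were called (34.8%), 1939 higher (16.2%) and 2221 lower (18.6%). Genes called in both genotypes in the same direction numbered 2210, 53.1% of the KI calls and 75.4% of the control calls, and none was called in opposite directions. Of the control calls 98.9% had the same sign in KI, as did 84.1% of all genes, and Pearson's r of the changes was 0.88 across genes, which are not independent replicates. Serpina6 changed by -8.48 in KI and -7.86 in controls, Col1a1 by -4.20 and -4.66, Ngb by 3.54 and 3.80, Nphs1 by 1.14 and 1.00, and Col4a1 by -1.93 and -2.58. The interstitial matrix list had a median of -1.93 in KI and -2.49 in controls, and the cell cycle list -0.66 and -0.85.

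The difference of the age change between genotypes was tested as an interaction over 16 arrays. Y-linked signal shifted with age in opposite directions in controls and KI, so sex and genotype are partly mixed in this difference. A fit of all 25 arrays with the Y-linked covariate called no gene for it. Over the 16 arrays no gene was called by limma (0% of 11968), and 422 (3.53%) had an unadjusted p under 0.05. The smallest p was that of Pigr, which averaged 10.38 at 44 weeks and 5.12 at 2 weeks in KI, against 12.47 and 5.07 in controls. Its rise of 5.26 in KI and 7.40 in controls differed by -2.14 ± 0.31 (unadjusted p = 6.1e-06, limma adjusted p = 0.0731). The epithelial chemokine Ccl28, which recruits antibody-secreting cells, read 7.11, 7.53, 8.75 and 7.40 at 44 weeks and 5.01, 4.50, 5.25 and 4.41 at 2 weeks in controls. It averaged 5.61 and 5.51 in KI, so its change was 0.10 in KI and 2.90 in controls, a difference of -2.80 ± 0.55 (unadjusted p = 0.00014, adjusted p = 0.81). Pdgfb was among the 5 smallest p for a higher change in KI, with a difference of 0.92 ± 0.23 (limma unadjusted p = 0.0012). Jchain and Fos, named for their changes in controls, were not among the 5 smallest p each way. Jchain differed by -1.76 ± 0.53 (0.0047 unadjusted, 1.0 adjusted). Fos changed by 0.27 in KI and -1.65 in controls, a difference of 1.91 ± 0.53 (0.0027 unadjusted, 1.0 adjusted). None of these differences passed the adjusted threshold. Immediate-early genes were called higher in 6 and lower in 4 of 28 in KI, near the 16.2% and 18.6% of all genes there. In controls 1 was called higher and 9 lower, against 10.1% and 14.4% of all genes. Those 9 falls became 5 to 10 with 1 array left out. Each genotype was fitted alone, so these counts do not test a difference between genotypes.

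**Figure D5:**
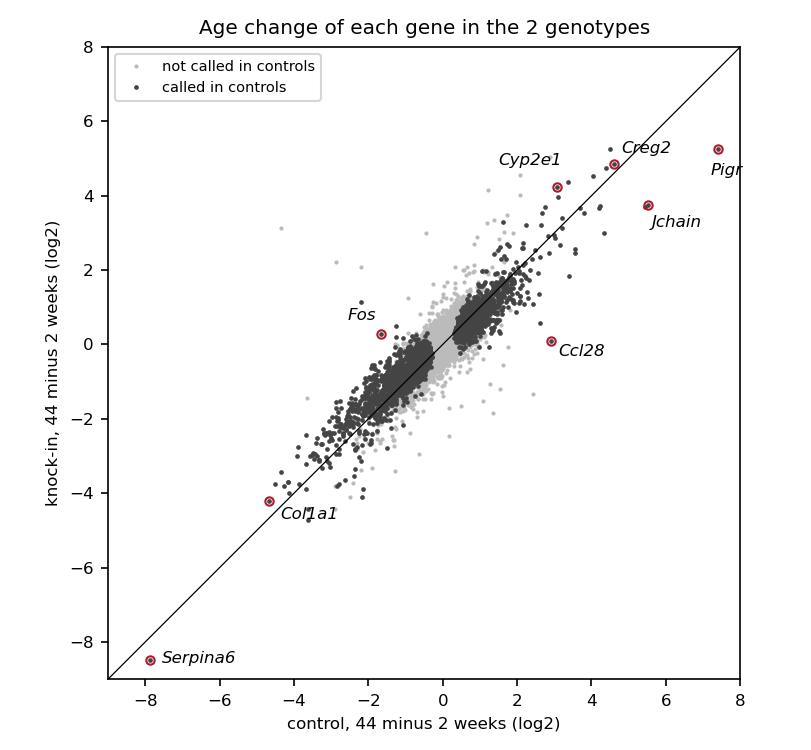
Change of each of 11968 genes from 2 to 44 weeks in KI podocytes (vertical axis, log2) against that in control podocytes (horizontal axis, log2), with genes called in controls in dark grey and a line of equality. Most called genes lie in the same quadrant in both genotypes; Pigr and Ccl28 lie under the line on the right and Fos above it on the left.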

How the data were processed

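Polysomal RNA purified by TRAP was amplified with 1 round of the NuGEN WT-Ovation kit and labelled with the Encore Biotin Module, per the labels' protocols, and hybridised to an Affymetrix mouse array with perfect-match probes only. The authors deposited log2 values, 1 for each probe set and array; the log base was read from their range of 1.86 to 13.62. No source used here says how the authors summarised or normalised probe sets. Array medians spanned 0.17 over the 25 arrays. The number of arrays limits the precision.

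Groups came from the titles. Of 45141 probe sets, 28898 had 1 gene symbol in the platform annotation, 551 several and 15692 none there; for 99.3% of Entrez identifiers a current symbol was found. This gave 17097 genes (7180 with several probe sets), each read from its brightest probe set, and 11968 after the filter at a mean of 4.603. Actn4 was not analysed here. limma 3.58.1 (R 4.3.3) was fitted to the 8 control arrays with 6 residual and 2.62 prior degrees of freedom, to the 8 KI arrays, and to 16 arrays for the interaction (12 and 2.93). Each change is the 44-week mean minus the 2-week mean in log2 units, with limma's moderated standard error. The fit was tested on simulated data with known changes. The members and gene lists were chosen with earlier results of these data known, so lists are described by counts and medians without a list test. Named genes are the 15 largest rises and 15 largest falls among calls without overlap, skipping 1 predicted gene, up to 6 called members of each list by p and its defining members, and the 5 smallest p each way for the interaction; others are said to be named after their values were seen. Alternatives were quantile normalization, array centring, no filter or a 50% filter, the mean of all probe sets, a trended robust prior, array weights, fits over 16 or 25 arrays, Y-linked and tubule covariates, and each array left out. Leaving out arrays 1 and 15 together was added after the data were seen.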

Additional observations from a re-analysis of the deposited data

Results flagged for a closer look

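In 170 values tested for a single array far from its group of 4, 10 were flagged, about as many as chance gives (about 1 in 20). For 2-week array 1 there were 4 of them: Serpina6 read 10.26 there, against 12.67 to 12.80 on the other 2-week arrays, and Agt 6.37, against 10.02 to 10.55. On the same array the mean of the sex chromosome genes was 8.37, against 8.28 to 8.30, and that of the antibody list 5.67, against 5.49 to 5.51. Leaving out array 1 moved the change of Serpina6 to -8.49 and that of Agt to -4.60.

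On 44-week array 15 the podocyte identity genes averaged 10.52, against 10.78 to 10.83 on the other 44-week arrays. On 44-week array 16 the mean of the claudin and cadherin list was 6.69, against 6.96 to 6.99, and the array median 4.93, against 4.99 on the other 3. Folh1 read 8.29 on 44-week array 17, against 6.79 to 7.00. Among 2-week arrays, the cell cycle mean was 7.50 on array 2, against 7.04 to 7.09, and Defa21 read 8.54 on array 3, against 8.14 to 8.20. The cause of these values was not tested.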

How the results depend on the processing

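The control count of 2930 calls (1212 higher, 1718 lower) stayed within 1.5 times under quantile normalization, centring, both filters, the mean of all probe sets, the trended prior and fits over 16 or 25 arrays. It was 5341 with array weights (2466 higher, 2875 lower) and 1474 with the Y-linked covariate over 8 arrays (609 higher, 865 lower); the tubule covariate over 25 arrays called 1921 higher. Without arrays 1 and 15 together it was 3837. With 1 array left out it ran from 1830 to 3106 (663 to 1406 higher, 1115 to 1857 lower). The KI count ran from 3259 to 4057 in this way (1448 to 1894 higher, 1786 to 2225 lower). The interaction ran from 0 to 1 call (0 higher, 0 to 1 lower), with the call in the fit without 44-week control array 16, and the 50% filter gave 1 call; the gene was Pigr, with the lower rise in KI, each time. The share of higher calls among all control calls was 41.4%, and 32.8% after centring of arrays, which called 951 higher and 1944 lower. Of 287 named called genes 154 kept their call under every alternative run, and 1, Psmd11, turned: -0.47 by its brightest probe set and 0.14 by the mean of its probe sets. The causes were not tested. No paired analysis was possible because the replicate numbers in the titles are unique to each array. Signal over background was not measured, and dim genes have the least certain folds.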

Other observations

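Members of several smaller lists were also called in control podocytes between 44 and 2 weeks. Over all genes 10.1% were called higher and 14.4% lower. Of 17 tested complement genes 4 rose and 2 fell. The complement inhibitor Cd55 read 10.28, 10.54, 10.59 and 10.75 at 44 weeks, against 9.79, 9.00, 8.68 and 8.92 at 2 weeks (1.44 ± 0.23, limma adjusted p = 0.0041), and Cd59a, another inhibitor, changed by 0.35 (0.049; 0.057 without array 15). Masp1, a starter protease of the lectin pathway, changed by -3.13 ± 0.21 (0.00014), and Serping1, which inhibits such proteases, by -1.74 ± 0.18 (0.0008). The other rises were C5ar1 (1.00) and Cr1l (0.38), and 1 gene rose without array 2, 3, 17 or 18 and 2 without array 5 or 15.

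Of 16 tested prostaglandin genes 3 rose, 5 fell and 8 did not pass. With 1 array left out, 1 to 4 rose and 3 to 4 fell. The phospholipase Pla2g4a read 4.88, 4.32, 4.70 and 4.89 at 44 weeks and 7.15, 7.79, 7.15 and 6.75 at 2 weeks (-2.52 ± 0.23, limma adjusted p = 0.0005). The prostaglandin-degrading enzyme Hpgd changed by -2.24 ± 0.39 (0.0054), and the receptor Ptgfr by 1.35 ± 0.23 (0.0053). Of 18 tested clock genes 2 rose, 3 fell and 13 did not pass, numbers near the shares of all genes. Clock rose by 0.77 ± 0.15 (0.0094) and Rora by 0.73 ± 0.13 (0.0055), while Per1 changed by -1.01 ± 0.25 (0.022). The hour of sampling is not given in the labels. The endoplasmic reticulum stress sensor Ern1 rose by 1.10 ± 0.20 (0.0061), whereas 31 of 34 genes of that list did not pass.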
